A study of Rattus norvegicus with 35 samples.

Results

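Described are 44 named genes of the non-collagen extracellular matrix: matricellular proteins, adhesive glycoproteins, proteoglycans, elastic fiber and basement membrane components, and the cell surface proteins that bind them. They were chosen by name, and 43 of the 44 were read by at least 1 array probe set annotated to that gene alone, among 14217 genes so measured on the array. Thbs1 had no such probe set in the annotation used and was not analysed here. The 43 genes were covered by 64 probe sets, and each gene is represented by its probe set with the highest mean log2 intensity over all arrays. In cultures of heart muscle cells stretched rhythmically for up to 48 h, RNA of the non-collagen matrix changed in both directions. The arrays read whole cultures that also held fibroblast markers, so the cell type behind a change was not identified. Tenascin-C, versican, fibulin-2, syndecan-1 and CD44 were called higher than in unstretched cells at every time measured, and fibromodulin, osteoglycin, Sparcl1, Smoc2, Mfap2, nidogen-2, laminin alpha 2, dermatopontin and glypican-3 were called lower at every time. Among these, the 24 h calls of CD44 and Mfap2 were each lost in 11 of 15 fits without 1 array. That of Smoc2 was lost in 4 of 15 and the 1 h call of Sparcl1 in 2 of 20.

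The matrix of the heart consists of fibrillar collagen and of a non-collagen part that surrounds each myocyte with a basement membrane, links cells to collagen and binds growth factors. Matricellular proteins such as tenascin-C, osteopontin, the thrombospondins and the SPARC family are secreted into the matrix, where they modulate adhesion and signaling rather than bear load, and several of them are known for low levels in the resting adult heart and for re-expression after overload or injury. Small leucine-rich proteoglycans bind collagen fibrils and regulate their thickness, and syndecans, glypicans and CD44 hold matrix ligands at the cell surface.

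RNA was measured in neonatal rat ventricular myocytes (NRVMs), primary cells from the ventricles of Sprague-Dawley rats aged 2 to 4 days, on 35 Affymetrix rat expression arrays in 7 groups of 5. Set I (20 arrays) held myocytes stretched for 1, 4 and 12 h and unstretched myocytes (control a), and set II (15 arrays) held myocytes stretched for 24 and 48 h and unstretched myocytes (control b). Stretch was cyclic and came from vacuum under plates with a flexible bottom, which the study's methods describe as coated with collagen I, and all groups shared this plate and the same enrichment of myocytes by pre-plating. The methods call the 5 arrays of a group biological replicates, and describe the stretch groups of a culture as started one after another, but the labels tie no array to a culture or litter, so the p-values measure the spread between these arrays.

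After normalization the arrays of a set were alike, which the normalization itself favors, so the quality of the raw arrays was not assessed. The upper quartile of the normalized intensities lay between 341.3 and 372.0 on the arrays of set I and between 394.7 and 416.4 on those of set II, so levels were compared only within a set. Arrays of a group correlated with r of at least 0.9917 in set I and 0.9898 in set II, and the median residual SD on the log2 scale was 0.114 in set I and 0.12 in set II, with 16 and 12 residual degrees of freedom. The precision is limited by the 5 arrays per group. Markers of cardiomyocytes were present in every group: the 11 measured of 12 summed to between 119472.8 and 143340.2 over all arrays, and none of the 11 changed by 1.5-fold at any time. The sum was lower without overlap after 12 h (130347.3 to 134160.9, against 137983.6 to 143340.2 in control a) and after 48 h (119472.8 to 125991.8, against 130749.3 to 134723.2 in control b), and 5 of the 11 were called lower at each of these times, where 19.7% and 18.4% of all genes were. Fibroblast markers were present as well, and their 8 genes summed to between 37603.8 and 46598.4, so the cultures were not of myocytes alone. Because each array reads a whole culture, fewer cells of a type and less RNA per cell cannot be told apart.

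How many of the matrix genes changed was the opening comparison. A gene was called at an adjusted p under 0.05 (limma, Benjamini-Hochberg over 31042 probe sets) and a second count kept those past 1.5-fold. After 1 h of stretch 6 of the 43 genes were higher and 11 lower than in control a, where 8.24% and 8.3% of all genes were called in these directions. After 4 h the counts were 8 higher and 17 lower, against 17.1% and 19.2% of all genes. After 12 h they were 8 higher and 24 lower, against 19.4% and 19.7%. In set II, 11 genes were higher and 12 lower after 24 h, against 13.5% and 10.1% of all genes, and 13 were higher and 18 lower after 48 h, against 22.5% and 18.4%. The share of matrix genes called in either direction was 39.5% after 1 h, 58.1% after 4 h, 74.4% after 12 h, 53.5% after 24 h and 72.1% after 48 h, and the share of all genes was 16.5%, 36.3%, 39.1%, 23.6% and 40.9% at the same times.

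At the 1.5-fold limit, 6 matrix genes were higher and 10 lower after 12 h, where 1.7% and 2.4% of all genes passed (4.09% in either direction). After 48 h 5 were higher and 10 lower, beside 3.83% and 5.26% of all genes (9.09% in either direction). After 24 h 4 genes passed in each direction, beside 1.71% and 1.61% of all genes (3.32% together). After 4 h 4 were higher and 1 lower, beside 1.76% and 1.81% (3.57% together), and after 1 h 1 was higher (0.999% of all genes) and 0 lower (0.324%, and 1.32% in either direction). The count of 11 higher genes after 24 h was 7 without control b replicate 1, 24 h replicate 2 or 24 h replicate 5, and the 1 gene lower past 1.5-fold after 4 h became 2 or 3 without control a replicate 2 or 5 or 4 h replicate 1, 2 or 4. The median log2 fold change of the 43 genes was -0.05 after 1 h, -0.05 after 4 h, -0.16 after 12 h, -0.02 after 24 h and -0.19 after 48 h, and the median of all genes stayed between -0.004 and 0.044. Which direction held more genes after 24 h turned with the setting: 15 were higher and 12 lower with array weights, and 11 higher and 9 lower with median centring of the arrays. These are counts beside a background and no test of the list. Few of the 43 genes were of low intensity: 2 had a mean log2 under 6. Of the 31042 probe sets, 17585 had a mean log2 of at least 6 in set I. The part of brightness in the difference between these shares was not tested.

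No gene of the 43 was called higher at some time and lower at another, which 321 of all 14217 genes (2.26%) were, so the 2 shares lie near each other. Of the 43 genes 14 were higher at some time and lower at none (32.6%, close to the 30.9% of all genes), 25 were lower at some time and higher at none (58.1%, and 27.9% of all genes), and 4 were called at no time (Vtn, Bgn, Lama4 and Hspg2). Of all genes 61.1% were called at some time. Calls at all 5 times were made for 5 genes in the higher direction (11.6% of the 43, and 3.92% of all genes) and for 9 genes in the lower direction (20.9%, and 3.79% of all genes). Of these genes Cd44 and Mfap2 lost their 24 h call in most fits without 1 array (11 of 15 each). Smoc2 lost its 24 h call in 4 of 15 and Sparcl1 its 1 h call in 2 of 20. Lama2 was in those fits too, but its single calls there were not followed. Within a set every time was compared with the same unstretched arrays, so these calls are not independent of each other.

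**Figure D1:**
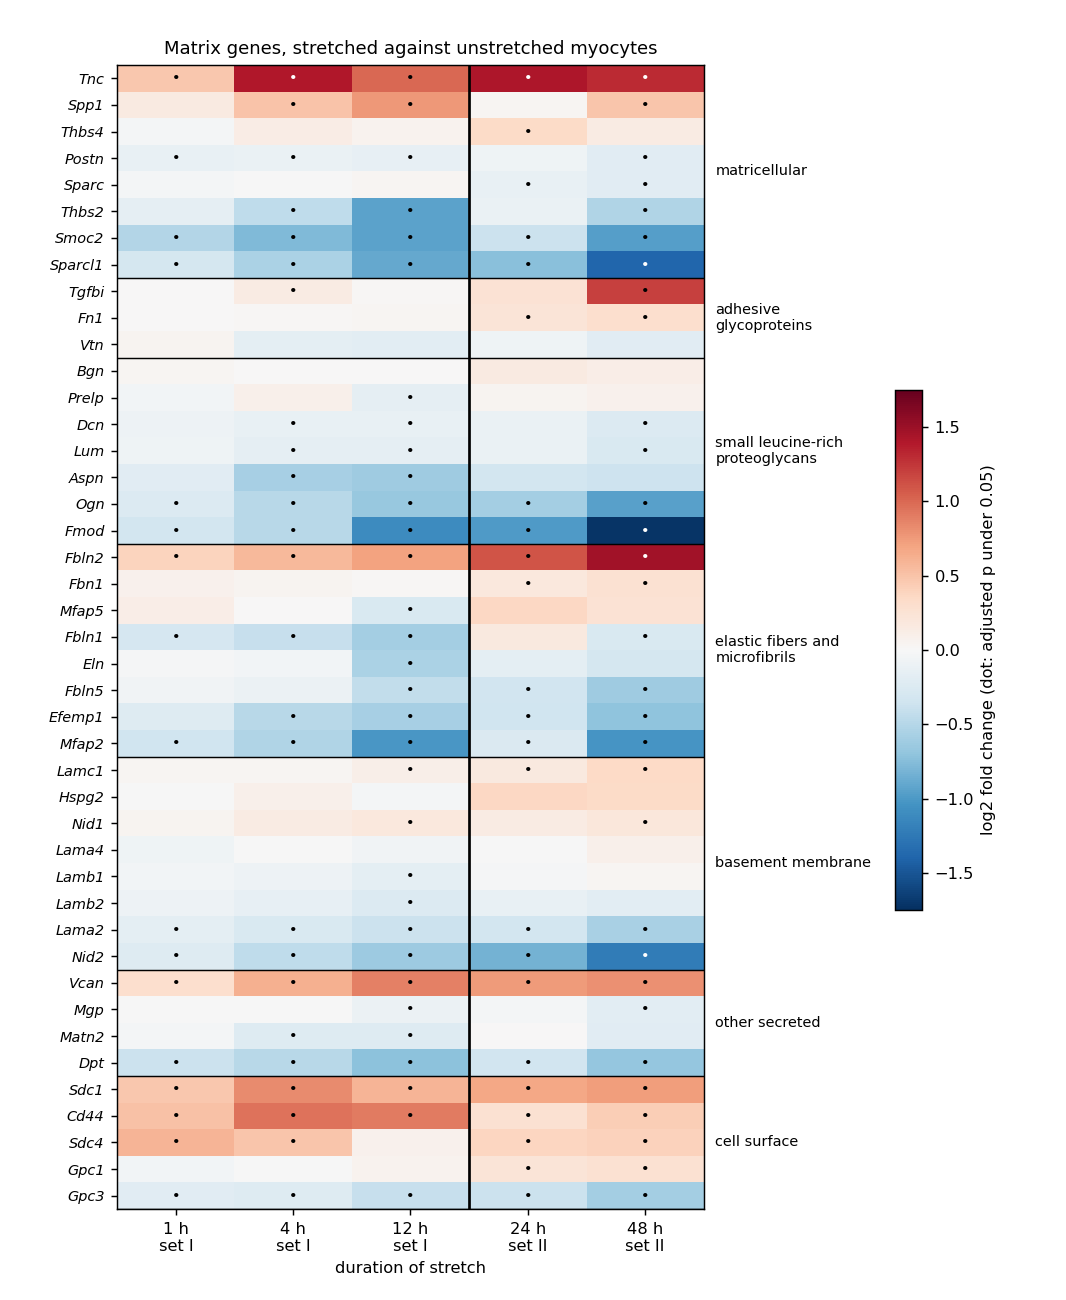
Log2 fold change of the 43 matrix genes at 5 durations of stretch (columns), each against the unstretched arrays of its set. Rows are grouped by role and ordered within a role by their value after 48 h. Red stands for higher and blue for lower in stretched cultures, and a dot marks an adjusted p under 0.05. Tnc and Fbln2 are red throughout and reach 1.41 and 1.47, and Fmod, Nid2 and Sparcl1 are blue throughout and reach -1.71, -1.23 and -1.39.

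Promoter sequences were looked at for the genes whose RNA moved in these ways. Sequence for the 250 bases before the start was matched by gene symbol or gene ID in RefSeq (rat build GRCr8) for 30 of the 43 genes, and 4 motifs were searched in it on both strands. The AP-1 motif was searched as TGANTCA, with any base allowed in the middle. It was found in 1 of the 30 genes, as TGAATCA (3.33%, against 6.34% of 33469 promoter windows of that length). The TEAD motif GGAATG was found in 6 (20%, against 12.1%), the CArG box in 1 (3.33%, against 1.5%) and the TATA motif TATAA in 9 (30%, against 24%). Windows of 6 genes are printed 5′ to 3′ on the gene's strand, ending at the base before the start, with motif letters in capitals. Tnc, Sdc1 and Sdc4 are shown as genes higher within 1 h that carry TATAA shortly before the start, Dpt as a gene lower within 1 h with the same feature, and Efemp1 and Ogn as lower genes with an AP-1 and a TEAD motif. They were chosen after their values were seen.
Tnc: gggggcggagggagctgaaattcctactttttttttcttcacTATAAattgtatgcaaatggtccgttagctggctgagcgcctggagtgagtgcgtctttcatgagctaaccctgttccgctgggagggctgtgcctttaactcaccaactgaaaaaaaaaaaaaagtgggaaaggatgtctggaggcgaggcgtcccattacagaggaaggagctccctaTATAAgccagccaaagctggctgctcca
Sdc1: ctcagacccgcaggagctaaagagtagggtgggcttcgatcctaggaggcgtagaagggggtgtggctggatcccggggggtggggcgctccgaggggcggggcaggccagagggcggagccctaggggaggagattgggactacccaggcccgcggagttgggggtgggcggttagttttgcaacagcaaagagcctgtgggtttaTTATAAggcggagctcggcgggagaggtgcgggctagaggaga
Sdc4: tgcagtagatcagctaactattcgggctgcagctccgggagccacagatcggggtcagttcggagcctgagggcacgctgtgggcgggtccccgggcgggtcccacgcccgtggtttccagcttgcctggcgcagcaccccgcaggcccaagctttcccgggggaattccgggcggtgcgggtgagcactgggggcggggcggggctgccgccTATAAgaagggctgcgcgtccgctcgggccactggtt
Dpt: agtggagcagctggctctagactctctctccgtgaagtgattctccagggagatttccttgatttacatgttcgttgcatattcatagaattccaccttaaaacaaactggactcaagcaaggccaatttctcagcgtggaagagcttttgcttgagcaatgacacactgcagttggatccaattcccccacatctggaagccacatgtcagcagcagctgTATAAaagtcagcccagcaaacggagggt
Efemp1: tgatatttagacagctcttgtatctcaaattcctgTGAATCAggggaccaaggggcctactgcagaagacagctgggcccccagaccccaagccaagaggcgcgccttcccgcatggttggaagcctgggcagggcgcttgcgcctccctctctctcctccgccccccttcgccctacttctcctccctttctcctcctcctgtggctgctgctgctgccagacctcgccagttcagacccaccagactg
Ogn: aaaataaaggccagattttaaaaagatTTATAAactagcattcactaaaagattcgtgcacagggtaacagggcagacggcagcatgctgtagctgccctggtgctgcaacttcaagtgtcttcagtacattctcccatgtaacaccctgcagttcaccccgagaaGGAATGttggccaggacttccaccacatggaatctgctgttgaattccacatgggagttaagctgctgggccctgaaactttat

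These windows lie at chr5:82476132-82476381 on the minus strand (Tnc), chr6:37281791-37282040 on the plus strand (Sdc1), chr3:173592924-173593173 on the minus strand (Sdc4), chr13:79656091-79656340 on the plus strand (Dpt), chr14:106811614-106811863 on the plus strand (Efemp1) and chr17:15258996-15259245 on the minus strand (Ogn). The TATAA next to the start began 28 bases before it in Tnc, 42 in Sdc1, 37 in Sdc4 and 29 in Dpt. In Sdc1 and Ogn the capitals TTATAA cover overlapping matches on both strands. The AP-1 motif of Efemp1 began 215 bases and the TEAD motif of Ogn 84 bases before the start. Among the matched genes that were higher at all 5 times (Tnc, Fbln2, Vcan, Sdc1 and Cd44), none held the AP-1 motif, the TEAD motif or the CArG box in this window, which says only that these letters are not there. A motif match is a description of the sequence and was not tested as a binding site.

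Tenascin-C (Tnc), a matricellular glycoprotein of loaded and injured tissue, had the largest changes of the matricellular genes in the higher direction. Its intensity was 2200.5, 2358.6, 2274.6, 2409.1 and 2467.0 on the 5 arrays stretched for 4 h, against 885.3, 893.9, 874.3, 892.8 and 896.0 on the control a arrays, and the groups did not overlap. The log2 fold change was 1.40 ± 0.051 (SE), or 2.63-fold, with an adjusted p of 1.11e-13. It was already 1.39-fold higher after 1 h (1115.4 to 1316.8, adjusted p = 1.06e-06) and 2.01-fold higher after 12 h (1610.1 to 1895.4, adjusted p = 9.54e-12). All stretched arrays of set I therefore lay above all control a arrays. In set II the intensity was 1129.4, 1665.5, 1195.9, 1987.6 and 1386.0 after 24 h and 1372.9, 1665.6, 1036.1, 1195.9 and 1543.2 after 48 h, against 473.3, 506.2, 540.5, 550.3 and 665.0 in control b. These were differences of 2.65-fold (log2 1.41 ± 0.154, adjusted p = 2.28e-05) and 2.47-fold (log2 1.31 ± 0.154, adjusted p = 6.27e-06), again without overlap.

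Osteopontin (Spp1), a secreted ligand of integrins and CD44, was higher in part of the time course. After 12 h it read 1117.3, 1125.7, 958.8, 1014.2 and 1114.3, against 608.4, 644.1, 628.2, 570.6 and 692.9 in control a, a 1.70-fold difference (log2 0.76 ± 0.077, adjusted p = 1.62e-07). The difference after 1 h, 1.12-fold, was not called (adjusted p = 0.201), and after 4 h it was 1.42-fold (adjusted p = 3.51e-05). At 24 h the stretched arrays split into 3 that read 899.2 to 1025.4 and 2 that read 618.6 and 687.2, with control b at 748.9 to 855.6, and no difference was called (adjusted p = 0.872). After 48 h all 5 stretched arrays (1002.7 to 1283.0) lay above control b, at 1.41-fold (adjusted p = 0.00477).

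The SPARC relatives and thrombospondin-2 moved the other way. Sparcl1 (hevin), a collagen-binding relative of SPARC, read 323.6, 394.3, 281.9, 367.5 and 340.9 after 48 h, against 707.7, 958.9, 996.7, 952.0 and 877.0 in control b, which gave a log2 fold change of -1.39 ± 0.105 (0.381-fold, adjusted p = 6.72e-08). Every 48 h array lay below every control b array. In set I it was 0.805-fold of control a after 1 h, 0.676-fold after 4 h and 0.538-fold after 12 h, with adjusted p-values of 0.0175, 3.48e-05 and 8.35e-08. The groups overlapped after 1 h and at no later time. That 1 h call was lost without control a replicate 3 (adjusted p = 0.0519) or 1 h replicate 5 (adjusted p = 0.0525).

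Smoc2, a calcium-binding matrix protein of the same family, read 393.0, 438.2, 477.7, 376.6 and 477.3 after 48 h, against 797.5, 943.5, 782.6, 917.2 and 769.8 in control b (log2 -0.96 ± 0.107, 0.513-fold, adjusted p = 3.28e-06). After 12 h it read 251.7, 219.1, 263.2, 226.3 and 223.3, against 499.6, 465.6, 394.7, 433.1 and 455.8 in control a (log2 -0.93 ± 0.074, 0.527-fold, adjusted p = 6.83e-09). Neither pair of groups overlapped. It was lower already after 1 h (log2 -0.51, adjusted p = 5.29e-05). The 24 h call (0.776-fold, adjusted p = 0.0251) was lost in 4 of 15 fits without 1 array, with adjusted p-values of up to 0.0689. The gene has another pair of probe sets, with mean log2 intensities of 5.99 and 6.06, whose log2 fold changes lay between -0.22 and 0.05 at all times and of which 1 was called, at 4 and 12 h, so the size of the Smoc2 change rests on the brightest probe set.

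Thbs2, a thrombospondin that restrains angiogenesis, read 251.2, 212.5, 224.8, 206.7 and 213.7 after 12 h, against 424.8, 408.0, 438.5, 462.1 and 390.1 in control a (log2 -0.94 ± 0.068, 0.522-fold, adjusted p = 1.73e-09). It was 0.896-fold after 1 h and not called (adjusted p = 0.142), 0.733-fold after 4 h (adjusted p = 3.08e-05), 0.929-fold after 24 h and not called (adjusted p = 0.47), and 0.697-fold after 48 h (172.6 to 223.7, against 253.7 to 319.8 in control b, adjusted p = 0.000207). Other matricellular genes moved little. Periostin (Postn), secreted by activated fibroblasts, was called lower at 4 of the 5 times with folds of 0.870 to 0.918, and SPARC itself was called lower after 24 h (0.914-fold, adjusted p = 0.0454) and 48 h (0.869-fold, adjusted p = 0.00138). Thbs4, whose probe set was dim with a mean log2 intensity of 4.98, was called only after 24 h (log2 0.33, adjusted p = 0.0217).

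**Figure D2:**
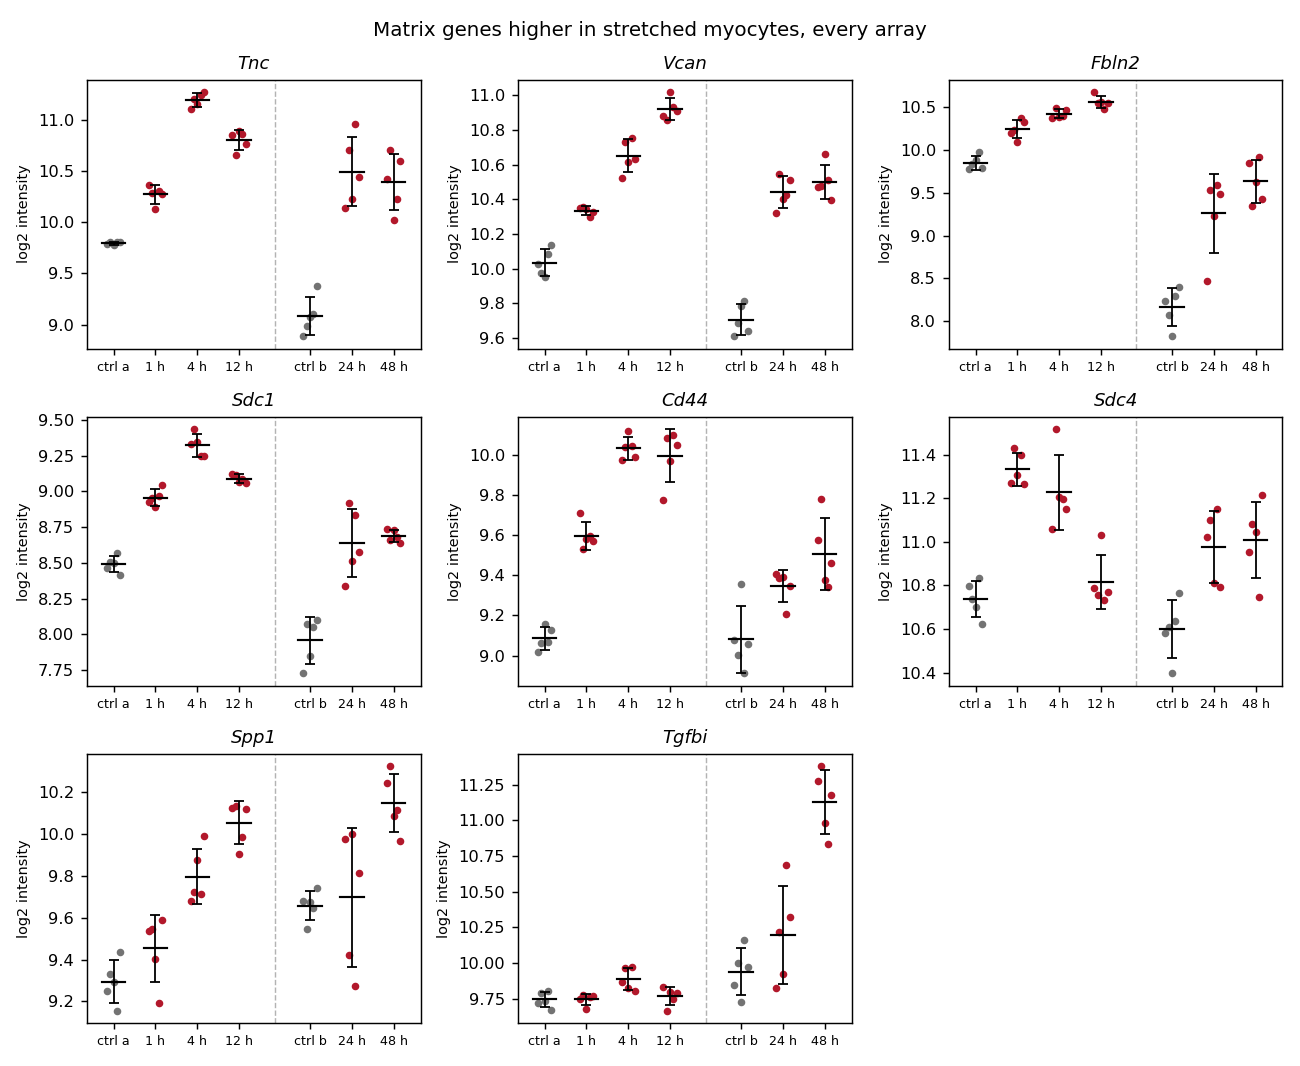
Log2 intensity of 8 matrix genes on every array, with gray points for unstretched and red points for stretched myocytes, a horizontal bar for the group mean, error bars for 1 SD (n = 5) and a dashed line between set I and set II, whose levels are not comparable. The axis range differs between panels. Tnc, Vcan, Fbln2 and Sdc1 lie above their control at all 5 times without overlap, Sdc4 reaches 1.51-fold after 1 h and lies at 1.06-fold after 12 h, and Tgfbi lies between 1.00-fold and 1.19-fold up to 24 h and at 2.28-fold after 48 h.

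Of the adhesive glycoproteins, Tgfbi, a secreted protein that binds integrins and collagens, changed late. It read 2482.9, 2661.7, 2017.3, 1821.7 and 2313.9 after 48 h, against 919.6, 1021.2, 846.9, 1146.1 and 1002.4 in control b, with no overlap (log2 1.19 ± 0.144, 2.28-fold, adjusted p = 8.04e-06). After 24 h it read 905.2, 1189.8, 969.8, 1649.0 and 1279.6, which overlapped control b, and the 1.19-fold difference was not called (adjusted p = 0.261). The direct comparison of 48 h with 24 h gave a log2 difference of 0.93 (adjusted p = 0.00103). In set I it stood at 1.00-fold after 1 h, 1.10-fold after 4 h and 1.02-fold after 12 h. Of these, 4 h alone was called (adjusted p = 0.0177), and that call was lost without control a replicate 5 (adjusted p = 0.0511) or 4 h replicate 4 (adjusted p = 0.0559).

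Fibronectin (Fn1), the main provisional matrix protein and an integrin ligand, was unlike Tgfbi in size. It differed from control a by at most 1.03-fold in set I with no call, and was 1.17-fold higher after 24 h (10841.3 to 11824.0, against 9411.2 to 9943.2 in control b, adjusted p = 0.00138) and 1.23-fold higher after 48 h (11592.6 to 12412.8, adjusted p = 4.14e-05). The groups of set II did not overlap. Vitronectin (Vtn) was dim (mean log2 intensity 4.65) and was called at no time.

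The small leucine-rich proteoglycans were either lower or not called: 0 of the 7 genes were higher at any time, and 2 were lower after 1 h, 5 after 4 h, 6 after 12 h, 2 after 24 h and 4 after 48 h, where 8.3%, 19.2%, 19.7%, 10.1% and 18.4% of all genes were lower at these times. Fibromodulin (Fmod), which binds collagen fibrils and shapes their assembly, had the largest change of all 43 genes. It read 658.9, 654.0, 569.5, 591.4 and 663.0 after 48 h, against 2138.0, 2125.0, 1728.7, 2288.7 and 1995.3 in control b, so that the highest stretched array lay below the lowest unstretched one (log2 -1.71 ± 0.125, 0.306-fold, adjusted p = 5.24e-08). After 12 h it read 836.6, 656.8, 887.6, 891.7 and 798.4, against 1767.6, 1709.5, 1690.3, 1815.1 and 1711.7 in control a (0.466-fold, adjusted p = 3.84e-10). Its fold was 0.804 after 1 h, 0.713 after 4 h and 0.505 after 24 h, all called without overlap. At 24 h replicate 1 read 1496.7 and the other arrays 844.2 to 1069.0.

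Osteoglycin (Ogn), a proteoglycan of the same family that carries the TEAD motif shown above, read 1989.8, 1837.1, 1676.3, 2465.2 and 1681.7 after 48 h, against 3739.3, 3644.6, 3913.4, 3551.1 and 3618.1 in control b (log2 -0.95 ± 0.123, 0.517-fold, adjusted p = 1.51e-05). The 48 h arrays spread more widely than the controls and lay below all of them. It was 0.849-fold after 1 h, 0.713-fold after 4 h, 0.632-fold after 12 h and 0.664-fold after 24 h, without overlap at any of these times. Its other 3 probe sets gave log2 fold changes of -1.34, -1.26 and -0.72 after 48 h.

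Asporin (Aspn), another fibril-binding member, read 677.5, 727.4, 660.4, 599.4 and 691.5 after 12 h, against 1034.0, 972.0, 1018.3, 1143.9 and 976.9 in control a (log2 -0.62 ± 0.106, 0.652-fold, adjusted p = 0.000104). In set II its groups overlapped, and its folds of 0.803 after 24 h and 0.777 after 48 h were not called (adjusted p = 0.211 and 0.103). Decorin (Dcn) and lumican (Lum), which cap collagen fibril growth, were lower by less: their folds were 0.914 and 0.895 after 4 h, 0.913 and 0.894 after 12 h, and 0.845 and 0.835 after 48 h, all called. Biglycan (Bgn) was called at no time, with folds of 1.00 to 1.12, and Prelp was called only after 12 h (0.898-fold, adjusted p = 0.0427).

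**Figure D3:**
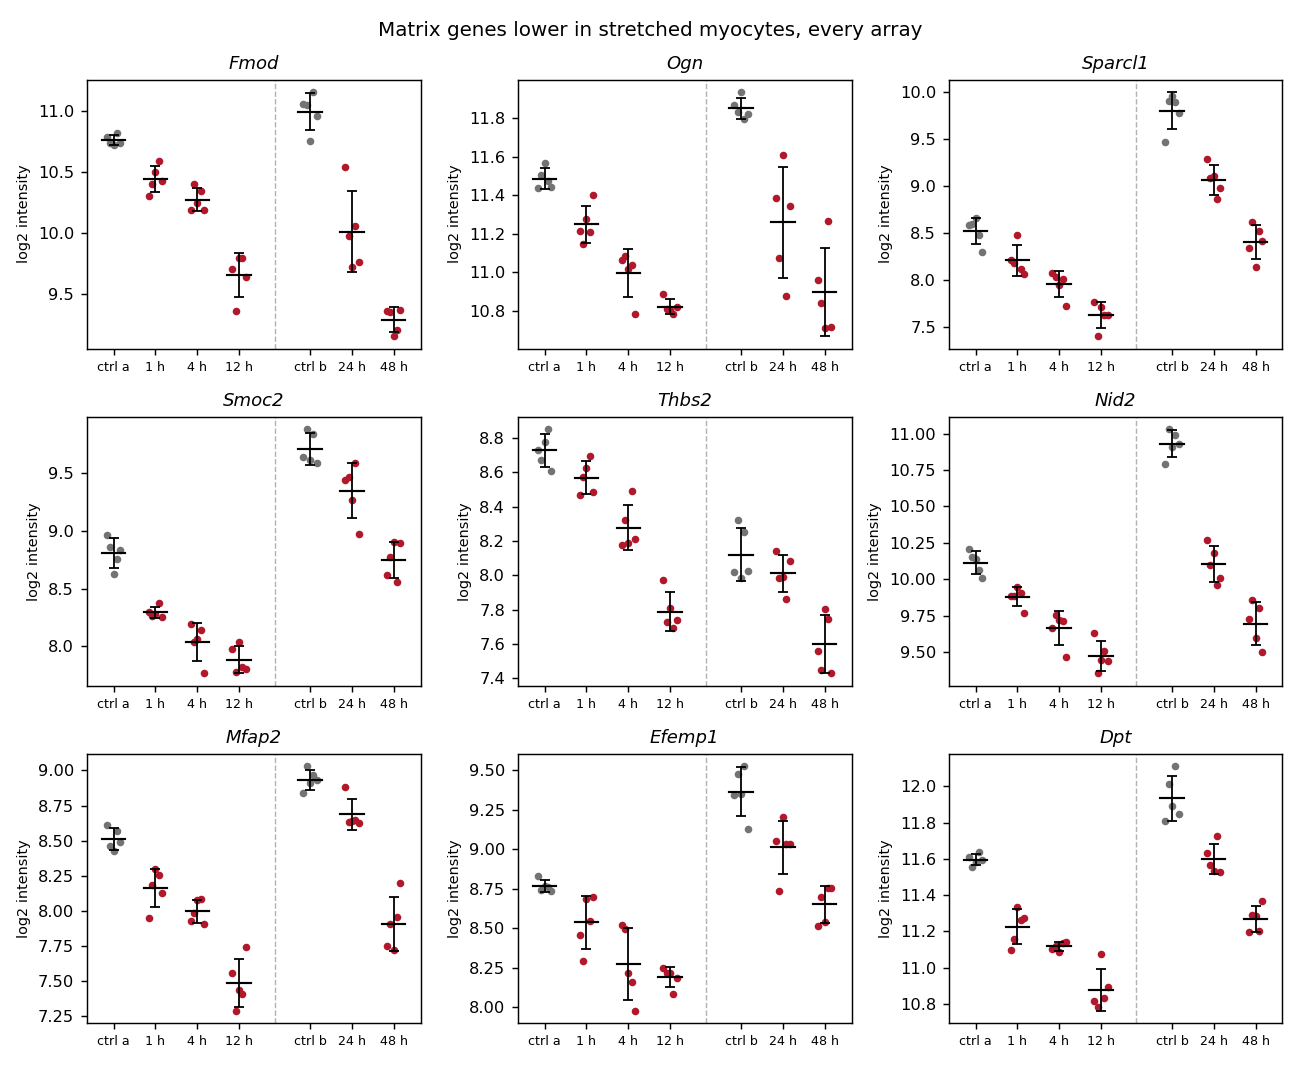
Log2 intensity of 9 matrix genes on every array, with gray points for unstretched and red points for stretched myocytes, a horizontal bar for the group mean, error bars for 1 SD (n = 5) and a dashed line between set I and set II, whose levels are not comparable. The axis range differs between panels. In set I the stretched arrays of Fmod, Sparcl1, Thbs2, Nid2 and Mfap2 lie lowest after 12 h, and in set II all 9 genes lie lower after 48 h than after 24 h on average, down to 0.306-fold of control b for Fmod.

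Elastic fiber genes split. Fibulin-2 (Fbln2), which binds fibronectin and elastic fibers and is known from developing heart valves, rose, and 6 of the 8 genes of this group fell after 12 h (19.7% of all genes did). Fbln2 read 922.9, 652.2, 790.3, 969.0 and 690.0 after 48 h, against 302.1, 269.3, 226.3, 314.0 and 336.8 in control b, with no overlap (log2 1.47 ± 0.185, 2.77-fold, adjusted p = 1.14e-05). At 24 h it read 355.7 on replicate 1 and 599.2 to 770.2 on the other arrays (2.14-fold, adjusted p = 0.000583). In set I it was 1.31-fold higher after 1 h, 1.49-fold after 4 h and 1.64-fold after 12 h (1432.4 to 1641.7, against 878.4 to 1006.8 in control a, adjusted p = 3.49e-09). The stretched arrays of set I also lay above all of control a.

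Microfibril-associated protein 2 (Mfap2), a fibrillin partner that also binds growth factors of the TGF-beta family, was the lowest of this group. It read 215.1, 239.5, 210.9, 248.0 and 293.6 after 48 h, against 457.3, 522.8, 480.7, 499.6 and 487.5 in control b (log2 -1.03 ± 0.082, 0.490-fold, adjusted p = 1.03e-07), and 188.5, 156.3, 173.4, 170.0 and 213.9 after 12 h, against 390.1, 352.5, 343.9, 379.7 and 359.6 in control a (0.492-fold, adjusted p = 2e-09). Stretched and unstretched arrays were apart in both. At 24 h it was 0.843-fold with overlap, and that call (adjusted p = 0.0457) was lost in 11 of 15 fits without 1 array, with adjusted p-values of up to 0.107. The log2 difference between 48 h and 24 h was -0.78 (adjusted p = 5.68e-05).

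Efemp1 (fibulin-3), whose promoter window holds TGAATCA, a match to the loose AP-1 pattern, read 364.7, 414.7, 372.3, 431.4 and 432.8 after 48 h, against 650.2, 712.0, 653.3, 737.5 and 560.2 in control b (log2 -0.71 ± 0.089, 0.610-fold, adjusted p = 1.09e-05). It was called after 4 h (0.710-fold), 12 h (0.670-fold) and 24 h (0.782-fold), and after 1 h it stood at 0.852-fold without a call (adjusted p = 0.0914). Fibulin-5 (Fbln5), which is needed for elastic fiber assembly in mice, read 97.5, 77.6, 86.6, 114.1 and 98.4 after 48 h, against 138.3, 138.0, 131.7, 172.7 and 146.4 in control b (log2 -0.62 ± 0.09, 0.650-fold, adjusted p = 4.54e-05). It was not called at 1 or 4 h (0.957-fold and 0.932-fold) and was 0.743-fold after 12 h and 0.794-fold after 24 h. Fibulin-1 (Fbln1) was 0.658-fold after 12 h (adjusted p = 5.77e-07) and 0.837-fold after 48 h, with 1.13-fold and no call after 24 h in between.

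Elastin and fibrillin-1, the core of elastic fibers and their microfibrils, changed by less than 1.5-fold on their brightest probe sets. Eln was called only after 12 h (0.677-fold, adjusted p = 0.00141). A dimmer probe set of the same gene (mean log2 5.89) gave log2 fold changes of -0.62 after 1 h, -0.78 after 4 h and -0.97 after 12 h, all called. The probe sets of elastin therefore disagree on when it fell and on whether it passed 1.5-fold. Fbn1 was 1.13-fold higher after 24 h (adjusted p = 0.0319) and higher by 0.26 on the log2 scale after 48 h (adjusted p = 0.00169), and Mfap5 was called only after 12 h (0.829-fold, adjusted p = 0.000947).

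In the basement membrane, nidogen-2 stood apart from nidogen-1, both of which bridge the laminin and collagen IV networks. Nid2 read 848.6, 926.0, 773.2, 894.5 and 723.8 after 48 h, against 1775.5, 2091.7, 1920.3, 2035.9 and 1952.8 in control b (log2 -1.23 ± 0.076, 0.425-fold, adjusted p = 1.32e-08), and 1235.0, 1096.4, 1163.1, 997.4 and 1032.0 after 24 h (0.564-fold, adjusted p = 5.15e-06). No stretched array of set II reached the control range. In set I it was 0.850-fold after 1 h, 0.732-fold after 4 h and 0.642-fold after 12 h (654.5 to 793.0, against 1029.1 to 1185.2 in control a). Nid1 was 1.14-fold higher after 12 h and 1.15-fold higher after 48 h (adjusted p = 0.012 and 0.0139), and its dimmer probe set gave log2 values of 0.07 and -0.22 there without a call.

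On their brightest probe sets, laminin chains moved little apart from Lama2, the alpha chain of the laminin around striated muscle fibers. Lama2 was called lower at all 5 times without overlap, at 0.888-fold after 1 h, 0.828-fold after 4 h, 0.774-fold after 12 h, 0.799-fold after 24 h and 0.674-fold after 48 h (adjusted p = 5.82e-06). Lamc1 was 1.08-fold higher after 12 h, 1.13-fold after 24 h and 1.27-fold after 48 h. A further Lamc1 probe set (mean log2 10.71) gave log2 fold changes of 0.37 after 4 h and 0.55 after 12 h, both called. That probe set was not called after 24 or 48 h, so the size and time of the Lamc1 change depend on the probe set. Lamb1 and Lamb2 were called lower only after 12 h (0.891-fold and 0.849-fold). Lama4 and perlecan (Hspg2), a large heparan sulfate proteoglycan, were called at no time. Hspg2 read 861.8 to 972.6 after 48 h, just above the 644.8 to 859.5 of control b, at 1.26-fold with an adjusted p of 0.0647.

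Among other secreted proteins, versican and dermatopontin went opposite ways at every time. Versican (Vcan), a large chondroitin sulfate proteoglycan that binds hyaluronan, read 1887.6, 1855.5, 2075.9, 1954.3 and 1920.4 after 12 h, against 1042.6, 1006.3, 991.1, 1086.1 and 1126.3 in control a (log2 0.88 ± 0.048, 1.85-fold, adjusted p = 3.08e-11). It was 1.23-fold higher after 1 h and 1.53-fold after 4 h, and each step was called (log2 0.32 between 1 and 4 h, adjusted p = 0.000136, and 0.27 between 4 and 12 h, adjusted p = 0.000973). In set II it was 1.67-fold higher after 24 h (1280.7 to 1498.4) and 1.74-fold after 48 h (1345.7 to 1618.8), against 781.6 to 898.7 in control b, with no call between these times (adjusted p = 0.681).

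Dermatopontin (Dpt), which binds decorin and collagen, read 1800.5, 1759.2, 2153.5, 1821.2 and 1900.4 after 12 h, against 3129.2, 3008.0, 3068.0, 3190.8 and 3086.3 in control a (log2 -0.72 ± 0.052, 0.608-fold, adjusted p = 1.92e-09). It was lower without overlap at the other times as well, at 0.773-fold after 1 h, 0.717-fold after 4 h, 0.792-fold after 24 h and 0.630-fold after 48 h. Mgp, an inhibitor of calcification, was called after 12 h (0.932-fold) and 48 h (0.883-fold), and Matn2 after 4 h (0.858-fold) and 12 h (0.851-fold).

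Of the 5 cell surface genes 3 were higher after 1 h and after 4 h, where 8.24% and 17.1% of all genes were, and 4 after 24 h and after 48 h (13.5% and 22.5% of all genes). Syndecan-4 (Sdc4), the heparan sulfate proteoglycan of focal adhesions, was the only one of the 43 genes past 1.5-fold after 1 h. It read 2469.2, 2761.9, 2533.9, 2700.1 and 2460.7, against 1778.3, 1705.7, 1664.0, 1825.9 and 1577.2 in control a (log2 0.60 ± 0.073, 1.51-fold, adjusted p = 7.36e-06). Without control a replicate 5, 1 h replicate 2 or 1 h replicate 4 it stayed called and its fold was under 1.5. Its stretched arrays after 1 h all lay above control a, while after 12 h it read 1700.6 to 2094.3, at 1.06-fold (adjusted p = 0.482). The log2 difference between 12 and 4 h was -0.41 (adjusted p = 0.000819). In set II it was 1.30-fold higher after 24 h and 1.33-fold after 48 h (adjusted p = 0.00958 and 0.00271).

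Syndecan-1 (Sdc1), a related heparan sulfate proteoglycan, read 643.5, 692.1, 650.6, 607.7 and 606.8 after 4 h, against 354.0, 363.4, 362.3, 379.4 and 340.8 in control a (log2 0.83 ± 0.044, 1.78-fold, adjusted p = 2.47e-11). It was 1.38-fold higher after 1 h, 1.51-fold after 12 h, 1.60-fold after 24 h and 1.66-fold after 48 h, and stretched and unstretched arrays did not overlap at any time. CD44, the hyaluronan receptor and a receptor of osteopontin, read 1006.5, 1051.7, 1109.9, 1054.2 and 1015.2 after 4 h, against 517.8, 534.8, 570.7, 536.5 and 558.5 in control a (log2 0.95 ± 0.056, 1.93-fold, adjusted p = 1.15e-10). It remained 1.88-fold higher after 12 h. In set II its groups overlapped. It was 1.34-fold higher after 48 h (adjusted p = 0.00131). The 24 h call (log2 0.27, adjusted p = 0.0472) was lost in 11 of 15 fits without 1 array, with adjusted p-values of up to 0.109. The dimmer CD44 probe set was not called after 24 h (log2 0.26, adjusted p = 0.296).

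Glypicans, heparan sulfate proteoglycans held in the membrane by a lipid anchor, differed from each other. Gpc3 read 561.4, 635.3, 552.5, 580.8 and 687.1 after 48 h, against 949.0, 889.5, 890.1, 1017.1 and 797.6 in control b (log2 -0.59 ± 0.092, 0.664-fold, adjusted p = 9.94e-05), and it was lower at the other times with folds of 0.756 to 0.872. A dim probe set of Gpc3 (mean log2 4.27) gave -0.68, -0.50 and -0.59 after 1, 4 and 12 h, all called. After 24 and 48 h that probe set gave -0.13 and -0.15 without a call, so the Gpc3 calls of set II rest on the brightest probe set. Gpc1 was 1.17-fold higher after 24 h and 1.21-fold higher after 48 h without overlap (adjusted p = 0.0151 and 0.00196) and not called in set I.

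The order of changes was tested by comparing neighboring times within a set. Between 1 and 4 h, 8 of the 43 genes were higher and 5 lower at the later time (8.64% and 8.89% of all genes, 17.5% in either direction), and Tnc alone passed 1.5-fold (log2 0.92, 1.90-fold, adjusted p = 9.12e-11). Of all genes 0.253% passed it in the higher and 0.506% in the lower direction. Between 4 and 12 h, 2 genes were higher and 13 lower (5.85% and 6.22% of all genes, 12.1% in either direction). The higher ones were Spp1 and Vcan, and Fmod passed 1.5-fold in the lower direction (log2 -0.61, adjusted p = 7.47e-06), as did 0.352% of all genes. Tnc and Sdc1 were below their 4 h level by then (log2 -0.39 and -0.23, adjusted p = 2.61e-05 and 0.00153) and still above control a. Between 24 and 48 h, 2 genes were higher (Spp1 and Tgfbi) and 10 lower (2.97% and 5.73% of all genes, 8.69% in either direction). Tgfbi passed 1.5-fold in the higher direction, as did 0.239% of all genes, and Mfap2, Fmod, Sparcl1 and Smoc2 in the lower direction, as did 1.18% of all genes, with log2 differences of -0.78, -0.72, -0.66 and -0.60. With median centring of the arrays the counts between 1 and 4 h were 6 higher and 6 lower. Single arrays decided some of these small counts. The 8 higher genes between 1 and 4 h became 5 without 1 h replicate 2, and the 5 lower ones became 2 without 4 h replicate 5. The 2 higher genes between 4 and 12 h became 1 without 4 h replicate 1, 2 or 4 or 12 h replicate 1, 2 or 5, and the 1 gene lower past 1.5-fold there (Fmod) became 0 without 4 h replicate 2 or 12 h replicate 2. The 2 higher genes between 24 and 48 h became 1 without 24 h replicate 2 or 48 h replicate 1, 2, 3 or 4.

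Agreement between the sets was described with 12 h and 48 h, whose arrays are all different, control arrays included. Over the 43 genes the log2 fold changes correlated with r = 0.874, and over all 14217 genes with r = 0.686. All genes include more of low intensity than the 43 do, and the part of brightness in this difference was not tested. The points are genes read on the same arrays within each comparison and no independent replicates. Of the 32 matrix genes called after 12 h and the 31 called after 48 h, 25 were called at both times (78.1% and 80.6% of each list, where all genes gave 64.1% and 61.2%), 8 of them higher and 17 lower, and 0 in opposite directions. Of all genes 5555 were called after 12 h and 5820 after 48 h, and 3561 at both times, 170 of them in opposite directions. Tgfbi lies off the diagonal, at 0.02 after 12 h and 1.19 after 48 h.

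**Figure D4:**
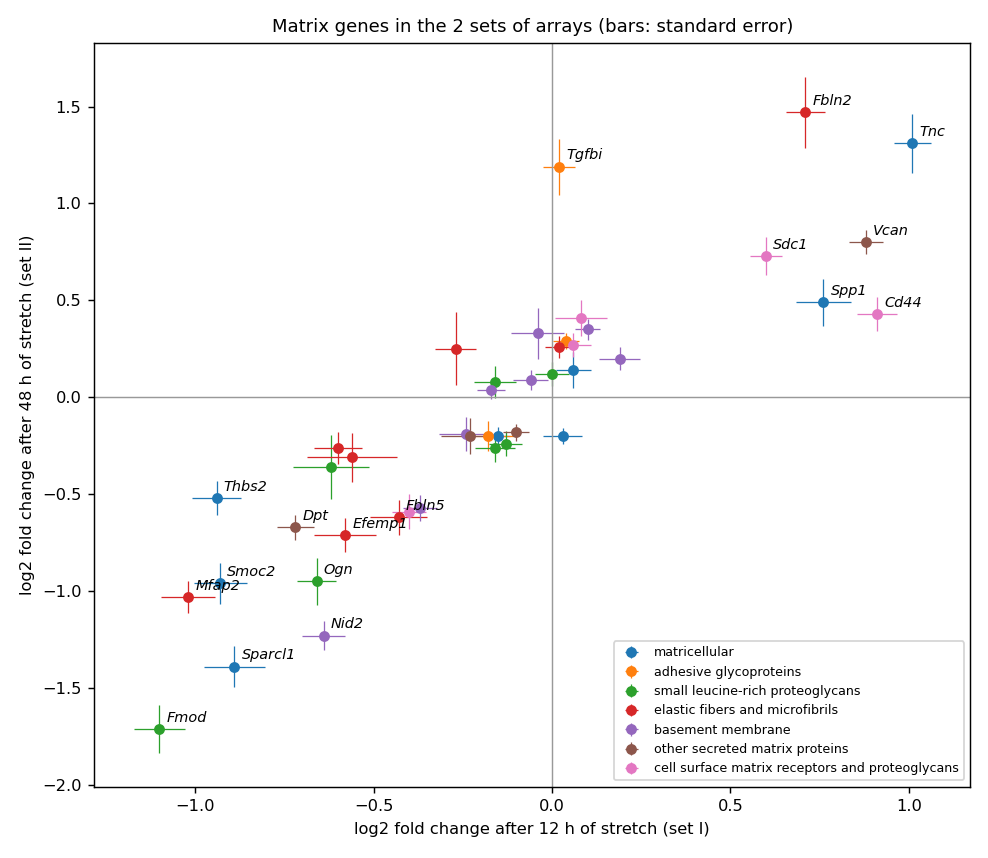
Log2 fold change of the 43 matrix genes after 48 h of stretch against control b (vertical axis) and after 12 h against control a (horizontal axis), colored by role, with bars for 1 SE. Tnc, Fbln2, Vcan, Sdc1, Spp1 and Cd44 lie in the upper right, Fmod, Sparcl1, Nid2, Mfap2, Smoc2 and Ogn in the lower left, and Tgfbi near 0 after 12 h and at 1.19 after 48 h.

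By their brightest probe sets, the 22 matrix genes that passed 1.5-fold at no time had log2 fold changes of -0.57 to 0.36 over all 5 comparisons. They include fibronectin, periostin, SPARC, decorin, lumican, biglycan, Mgp, fibrillin-1, nidogen-1, perlecan and all 5 laminin chains measured. A change under 1.5-fold is not the same as none, and 18 of these 22 were called at some time, as were 61.1% of all genes. How many of all genes passed 1.5-fold at no time was not counted.

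Genes that act on this matrix were listed by role. Of the TGF-beta ligands, which are stored in the matrix and induce many of its genes, all 3 were called higher at 1, 4 and 48 h, where 8.24%, 17.1% and 22.5% of all genes were. After 12 h 2 were higher and 1 lower (19.4% and 19.7% of all genes), and after 24 h 2 were higher (13.5%). Tgfb2 was higher by a log2 fold change of 0.47 after 1 h, 0.88 after 4 h, 0.36 after 12 h and 1.91 ± 0.2 after 48 h (adjusted p = 1.75e-06). Tgfb3 was higher by 0.48 after 1 h and 0.41 after 4 h, lower after 12 h (-0.29, adjusted p = 0.000185), not called after 24 h (0.65, adjusted p = 0.108) and higher by 1.53 after 48 h (adjusted p = 0.000291). Tgfb1 was highest after 4 h (0.66, adjusted p = 4.17e-07).

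Of 25 genes for assembly and modification of the non-collagen matrix 22 were measured, and 4 were higher and 1 lower after 1 h, 6 and 2 after 4 h, 5 and 5 after 12 h, 8 and 0 after 24 h, and 8 and 3 after 48 h. The 8 of 22 called in either direction after 4 h and the 10 of 22 after 12 h lay near the shares of all genes, 36.3% and 39.1%, and over all genes 16.5% were called after 1 h, 23.6% after 24 h and 40.9% after 48 h. Has2, which makes the hyaluronan that CD44 and versican bind, was higher by a log2 fold change of 1.76 ± 0.063 after 1 h (adjusted p = 2.45e-14), 0.48 after 4 h, 0.44 after 12 h and 0.25 after 24 h, and after 48 h it was not called (0.09, adjusted p = 0.343). Ltbp1 and Ltbp2, of the family of latent TGF-beta binding proteins of microfibrils, were called higher at all 5 times and reached 1.53 and 1.24 after 48 h. Loxl1, a cross-linking enzyme of elastic fibers, was higher by 0.80 after 24 h and 0.91 after 48 h (adjusted p = 8.75e-08).

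Of 24 integrins and other matrix receptors 20 were measured, and 4 were higher and 2 lower after 1 h, 8 and 5 after 4 h, 5 and 6 after 12 h, 6 and 0 after 24 h, and 9 and 4 after 48 h. These counts stand beside the same shares of all genes, and the 6 of 20 after 24 h lay near the 23.6% there. Itgav, the alpha chain of integrins for vitronectin, osteopontin and other RGD ligands, was higher by a log2 fold change of 0.66 after 48 h (adjusted p = 0.000186), and Itga9, a receptor chain for tenascin-C and osteopontin, by 0.62 (adjusted p = 0.00139). Itga8 and glypican-4 (Gpc4) were lower by most after 12 h, with -0.81 (adjusted p = 3.11e-08) and -0.66 (adjusted p = 8.22e-10). The medians of the 3 lists after 48 h were 1.53, 0.09 and 0.15 for TGF-beta ligands, assembly genes and receptors, beside 0.044 for all genes.

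**Figure D5:**
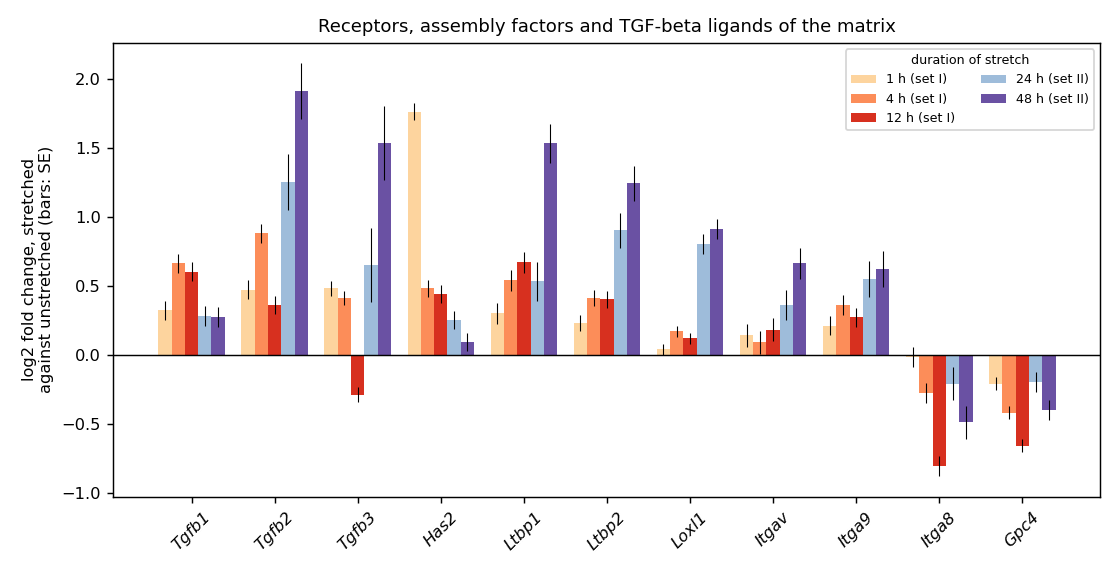
Log2 fold change (bars, with 1 SE) of 11 genes that act on the matrix at 5 durations of stretch, each against the unstretched arrays of its set. Has2 is tallest after 1 h (1.76), Tgfb2, Tgfb3 and Ltbp1 are tallest after 48 h (1.91, 1.53 and 1.53), and Itga8 and Gpc4 lie below 0 with their lowest bars after 12 h.

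Markers of other cells moved in the same cultures. Of all genes 19.2% were called lower after 4 h, 19.7% after 12 h, 10.1% after 24 h and 18.4% after 48 h. In the higher direction 19.4% were called after 12 h and 22.5% after 48 h. Of 6 measured endothelial markers 4 were lower after 4 h, 4 after 12 h, 2 after 24 h and 5 after 48 h, and their summed intensity was 1799.4 to 1973.1 after 48 h, against 2614.2 to 3454.0 in control b, and 1363.4 to 1632.6 after 12 h, against 1763.9 to 2168.2 in control a. Of 7 macrophage markers 6 were lower after 48 h, and they summed to 1958.9 to 2348.6, against 3113.3 to 4122.1 in control b, with Csf1r, C1qa, C1qb and Ptprc at a mean log2 intensity under 6. In set I the macrophage markers summed to 687.4 to 764.9 after 12 h, against 776.2 to 877.2 in control a. Of 6 smooth muscle and pericyte markers 3 were higher after 48 h, namely Cnn1, Acta2 and Cspg4 with log2 fold changes of 2.89, 1.12 and 1.01, and Rgs5 was lower (-0.50, adjusted p = 0.000426). The list summed to 4080.8 to 4457.9, against 2214.0 to 3176.0 in control b. Of 8 fibroblast markers 1 was higher and 3 lower after 48 h, and they summed to 38258.9 to 42746.7, against 44163.7 to 46598.4 in control b. With 4 of the 8 not called, the share called lay near the 40.9% of all genes called in either direction then. Pdgfra, a receptor that marks fibroblasts, was lower by a log2 fold change of -1.10 after 12 h and -1.04 after 48 h. The collagen genes Col1a1 and Col1a2 lay between -0.06 and 0.17 at all times. These genes were picked from the 8, and the other fibroblast markers are not given singly. They do not stand for the list, whose sum lay below control b after 48 h without overlap. Of 4 measured epicardial and mesothelial markers 3 were lower and 1 higher after 12 h and 1 was higher after 48 h, and the list summed to 511.4 to 589.3 after 48 h, against 411.1 to 527.5 in control b. Both measured Schwann cell markers had a mean log2 intensity under 6. No marker is listed at 0, which the normalization does not give. The part of these cells in the changes of the matrix genes was not tested.

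Other probe sets of the same genes were compared with the brightest. Among the 43 genes 15 had more than 1 probe set, with 21 further probe sets together. Where the brightest was called, 8 of 14 further probe sets were also called after 1 h, 12 of 15 after 4 h, 14 of 18 after 12 h, 8 of 16 after 24 h and 11 of 18 after 48 h, and all of those had the same direction. For Vcan, 3 of the other 4 probe sets were called higher at all 5 times. For Sparc, the other probe set was called lower at 4 and 12 h (log2 -0.15 and -0.23), where the brightest was not called, and for Lamc1 the other was higher by 0.37 after 4 h and 0.55 after 12 h.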

How the data were processed

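Total RNA of 35 NRVM cultures was labelled as biotinylated cRNA and hybridised to Affymetrix rat arrays. The deposited values were normalized intensities on a linear scale, which the authors made with RMA per the labels, with a version not given in the sources used here. RMA gives no background flag and no 0. A spreadsheet had turned 471 of 1088465 deposited values, in 427 probe sets, into dates. These were read back as numbers, and none lay in a probe set of a matrix gene. After 57 array controls were left out, 31042 probe sets were tested. Of these 20826 were annotated to 1 gene, 436 to several and 9780 to none in the platform annotation. A gene was read from its brightest single-gene probe set.

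Groups came from the labels, which mark control arrays with the letters a and b, and their assignment to set I and set II rests on the study's description of separate controls and on the upper quartiles of the arrays. Intensities were log2 transformed, and limma 3.58.1 (R 4.3.3) was fitted to each set with 1 mean per group, with 5 comparisons against control and 3 between times. P-values were adjusted by Benjamini-Hochberg over all probe sets, and all tests were two-sided. The test was checked on simulated data. Tables and figures were made with Python 3.11.15, pandas 2.3.3, numpy 2.4.6 and matplotlib 3.10.9. Probe sets with a mean log2 intensity under 6 were called dim.

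Values of every array are given for genes past 1.5-fold in at least 1 comparison with control, at most 4 per role group by size of change, plus any that went against its group. Of each pathway list up to 4 genes past 1.5-fold are named, by size of change, with fold changes alone. The members, the lists and the motifs were chosen with earlier results of these data known, so no list was tested as a set. Promoter windows came from RefSeq (GRCr8). The alternatives were median centring, quantile normalization, the methods' one-way analysis, only the 2 groups compared, a filter on dim probe sets, a replicate block, array weights, the mean of a gene's probe sets, adjustment over genes, date values left out, and each array left out in turn.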

Additional observations from a re-analysis of the deposited data

Results flagged for a closer look

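Among 140 groups of 5 arrays screened for an array far from the rest of its group, 4 held one, and chance alone gives such an array in about 1 in 20 groups. Osteoglycin read 1761.9 on replicate 5 of the 4 h group, where the other arrays read 2069.8 to 2173.9. Mfap2 read 472.7 on replicate 1 of the 24 h group, where the others read 395.0 to 401.2. Tgfbi read 820.0 on replicate 3 of the 1 h group, where the others read 860.8 to 874.3. Syndecan-4 read 2094.3 on replicate 3 of the 12 h group, where the others read 1700.6 to 1770.4.

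Of the changes between neighboring times of a set, 7 passed the test of the difference itself at 1.5-fold or more (limma, Benjamini-Hochberg adjustment). Tnc was higher after 4 h than after 1 h by 0.92 on the log2 scale (adjusted p = 9.12e-11), and Fmod was lower after 12 h than after 4 h (-0.61, adjusted p = 7.47e-06). From 24 h to 48 h the log2 difference was 0.93 for Tgfbi (adjusted p = 0.00103), -0.78 for Mfap2 (adjusted p = 5.68e-05), -0.72 for Fmod (adjusted p = 0.00234), -0.66 for Sparcl1 (adjusted p = 0.00132) and -0.60 for Smoc2 (adjusted p = 0.00303).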

How the results depend on the processing

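No named gene reversed its direction under any of the 10 alternatives or with 1 of the 35 arrays left out, where either fit called it. The direction of changes called in neither fit was not followed. Which direction held more genes did turn in 2 comparisons. After 24 h (11 higher and 12 lower) it was 15 and 12 with array weights, 11 and 9 with median centring, 11 and 10 with the replicate block, and 12 and 11, 13 and 11 and 11 and 10 without control b replicate 5, 24 h replicate 1 and 48 h replicate 4. Between 1 and 4 h (8 higher and 5 lower) it was 5 and 6 without 1 h replicate 2 and 6 and 7 without 4 h replicate 2. Of the counts of matrix genes, 311 of the values under these alternatives lay within 1.5 times the value reported and 9 did not, and of those with 1 array left out 554 did and 26 did not. The 1 gene lower past 1.5-fold after 4 h became 0 with the mean of a gene's probe sets and 2 with quantile normalization. Between 1 and 4 h the 8 higher genes became 5 with the 2 groups compared alone, and the 5 lower genes became 8 with the adjustment over genes, 3 with array weights and 3 with the 2 groups compared alone. The 2 genes higher between 24 and 48 h became 1 with the 2 groups compared alone and 1 with the methods' one-way analysis, and the 2 higher between 4 and 12 h became 1 with the 2 groups compared alone. The cause was not tested in any of these. With 1 array left out, the count past 1.5-fold ranged from 0 to 1 for genes higher after 1 h, from 1 to 3 for genes lower after 4 h and from 0 to 1 for genes lower between 4 and 12 h. The count of genes higher ranged from 7 to 13 after 24 h, from 5 to 8 between 1 and 4 h, from 1 to 2 between 4 and 12 h and from 1 to 2 between 24 and 48 h, and that of genes lower between 1 and 4 h from 2 to 7.

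Calls of single genes near the threshold moved. After 24 h Cd44 was not called with the mean of its probe sets (adjusted p = 0.112), quantile normalization (0.054) or the one-way analysis (0.0734), Mfap2 not with median centring (0.0833), quantile normalization (0.0512) or the one-way analysis (0.0671), and Smoc2 not with median centring (0.0504), the mean of its probe sets (log2 -0.09, 0.464) or the one-way analysis (0.0501). Tgfbi after 4 h was not called with the 2 groups compared alone (0.0588). Aspn and Efemp1 after 1 h were called with array weights (0.031 and 0.00838), Efemp1 also with the 2 groups alone (0.0456), and Aspn after 48 h with the mean of its probe sets (0.041).

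The replicate numbers did not meet the rule for pairing, which asks for a correlation over 0.1 in every pair: same-numbered arrays deviated from their group means with correlations of -0.297 to 0.339 in set I (6 of 30 over 0.1) and -0.393 to 0.539 in set II (6 of 15 over 0.1). Control b and 24 h came nearest, with 0.0352 to 0.539 and 4 of 5 over 0.1, so whether those arrays shared cultures is not settled. With the replicate block the probe sets called numbered 4211 after 1 h (4297 without it), 8968 after 4 h (9121), 10146 after 12 h (10306), 5468 after 24 h (5672) and 10060 after 48 h (10209). The block changed 1 call of a named gene, Mfap2 after 24 h (log2 -0.25, adjusted p = 0.0696). The 5 arrays of a group and, for Thbs4 and Vtn, a mean log2 intensity under 6 limit the precision.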
